A study of Mus musculus with 16 samples.

Results

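The genes described here are 8 genes of the complement system with roles on or around B cells: the receptor gene Cr2, the membrane regulators Cr1l, Cd55 and Cd59a, the component C3, the anaphylatoxin receptors C5ar1 and C3ar1, and properdin, Cfp. They were taken by symbol from a table of 27928 genes, in which all 8 were found, and 6 of the 8 passed the minimum for testing. Splenic B cells of mice aged 8 to 12 weeks were purified by negative selection and then sorted on the surface markers CD21 and CD23, into follicular (FO, CD21lo CD23hi) and marginal zone (MZ, CD21hi CD23lo) cells. The WT mice were C57BL/6, and the conditional knockout mice (cKO, Gtf2i fl/fl with a Cre) carried floxed Gtf2i alleles, which encode the transcription factor TFII-I, and a Cre active in B cells. There were 2 RNA-seq libraries in each of the 4 groups, WT FO, WT MZ, cKO FO and cKO MZ. The WT mice had neither the Cre nor the floxed alleles, so effects of the Cre and of the deletion cannot be told apart.

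Complement is a cascade of plasma proteins that deposits fragments of C3 on foreign surfaces. On mouse B cells CD21, encoded by Cr2, binds these fragments and joins CD81 in a coreceptor that lowers the threshold of the antigen receptor. MZ B cells, which sit beside the blood sinuses of the spleen, are known for high CD21 and for carrying immune complexes coated with complement into the follicles. Host cells are protected by regulators on their own membranes: Crry (Cr1l) and DAF (Cd55) act on the C3 convertases, and CD59 (Cd59a) blocks the assembly of the membrane attack complex. Properdin stabilises the convertase of the alternative pathway, and C3aR and C5aR1 are G protein-coupled receptors for the fragments C3a and C5a, best known from myeloid cells.

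The libraries held between 21546552 and 25083552 reads on genes. The 7 B cell markers on the list (Cd79a, Cd79b, Ms4a1, Pax5, Ebf1, Cd22 and Blk) were present in all libraries and summed to between 180749 and 235102 normalized counts (reads divided by the size factor of the library), whereas the 11 T and NK cell markers summed to between 819 and 1422, of which Lck made up 692 to 1226 and Cd3e at most 5.71. S1pr3, an MZ gene, lay between 189 and 247 in the FO and between 6579 and 9018 in the MZ libraries. Gtf2i was lower in each cKO library than in each WT library of its subset, with 1992 to 2864 in WT and 1523 to 1889 in cKO, but the exons that the deletion removes are not given in the sources used here and the counts cover the whole gene. It was 1.45-fold lower in MZ (limma adjusted p = 0.363) and 1.32-fold lower in FO B cells (limma adjusted p = 0.989) and was not called. The share of all genes with the same order is not given here. The library of cKO MZ replicate 1 stood apart from the other 7 in erythroid genes (6 genes summing to 13304 against 25.9 to 1007) and in granulocyte and monocyte genes (16 genes summing to 2184 against 118 to 230.2). The genotypes also differed in sex-linked RNA, since Xist was at least 25929.5 in the WT libraries and Ddx3y at most 6.34. In cKO, replicate 1 of FO held both (14748 for Xist and 2682 for Ddx3y), while the other 3 libraries had 21.7 to 89.7 for Xist and 4439 to 5514 for Ddx3y, so sex and genotype cannot be told apart.

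Of the 8 genes, 4 differed between FO and MZ B cells in both genotypes. Cr2, Cd59a and Cfp were higher and Cd55 lower in MZ B cells. The 250 bases before their RefSeq start sites (GRCm38.p6), in which GENCODE M21 annotates no exon, are printed because these 4 genes carry the differences described below. They are written 5′ to 3′ on the strand of the gene, with capitals for matches on either strand to the RBP-J motif GTGGGAA or the NF-kB motif (GGGA and CC with 4 bases between them).
Cr2 (minus strand, chr1:195176720-195176969): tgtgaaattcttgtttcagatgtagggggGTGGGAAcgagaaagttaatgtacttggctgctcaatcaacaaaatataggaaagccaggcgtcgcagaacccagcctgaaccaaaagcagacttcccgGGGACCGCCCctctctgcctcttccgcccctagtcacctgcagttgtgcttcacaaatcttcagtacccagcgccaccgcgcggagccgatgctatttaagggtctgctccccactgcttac
Cd55 (minus strand, chr1:130462745-130462994): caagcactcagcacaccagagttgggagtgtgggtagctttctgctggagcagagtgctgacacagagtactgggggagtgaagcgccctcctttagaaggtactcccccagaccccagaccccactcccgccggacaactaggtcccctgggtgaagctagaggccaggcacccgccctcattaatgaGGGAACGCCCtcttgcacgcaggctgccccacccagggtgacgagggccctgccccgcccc
Cd59a (plus strand, chr2:104095551-104095800): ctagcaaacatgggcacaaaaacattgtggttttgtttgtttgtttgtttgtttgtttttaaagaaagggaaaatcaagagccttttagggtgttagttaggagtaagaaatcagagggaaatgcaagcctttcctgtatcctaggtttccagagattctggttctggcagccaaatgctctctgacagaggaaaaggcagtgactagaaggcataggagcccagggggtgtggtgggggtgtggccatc
Cfp (minus strand, chrX:20931556-20931805): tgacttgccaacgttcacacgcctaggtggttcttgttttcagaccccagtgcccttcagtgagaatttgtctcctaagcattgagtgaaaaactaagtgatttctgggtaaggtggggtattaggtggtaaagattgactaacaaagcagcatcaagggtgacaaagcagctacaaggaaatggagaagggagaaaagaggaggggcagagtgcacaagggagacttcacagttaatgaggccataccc
The motifs were searched on both strands in 300 bases, from 250 before to 50 after the start, together with the E-box CACGTG and the TATA motif TATAAA. The Cr2 window held GTGGGAA at -221 and GGGACCGCCC at -122 relative to the start, and the Cd55 window held GGGAACGCCC at -61. The Cd59a and Cfp windows held none of the 4 motifs. Among 32851 promoters of the same length, 6.38% held the RBP-J motif, 20.7% the NF-kB motif, 7.15% the E-box and 13.6% the TATA motif. These matches describe the letters only.

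Cr2 (ENSMUSG00000026616.16, minus strand, chromosome 1 from 195136811 to 195176716) encodes CD21 and, by alternative splicing in the mouse, the longer receptor CD35, and counts over the gene do not separate the isoforms. Its normalized counts in WT were 23889.7 and 26803 in FO against 88407 and 88275 in MZ, and in cKO 22942 and 25356 in FO against 86953 and 97087 in MZ. All 4 MZ libraries lay above all 4 FO libraries. The log2 difference, MZ minus FO, was 1.80 in WT (standard error 0.12, 3.49-fold, limma adjusted p = 0.000136) and 1.93 in cKO (3.81-fold, adjusted p = 9.5e-05). CD21 is one of the markers on which the cells were sorted, so this difference describes the gates and is no independent observation. The same holds for Fcer2a, the gene of CD23, which was between 24802 and 41973 in the FO and between 3069 and 6708 in the MZ libraries. In a bulk library, fewer cells of a type and less RNA per cell cannot be told apart.

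Per length, Cr2 was an abundant transcript of MZ B cells. It had 10890.2 ± 11.5 (SD, n = 2) normalized counts per kb of exon in MZ B cells of WT and 11344 ± 883 in those of cKO, which placed it at rank 55 and 57 of the 14761 tested genes. In FO B cells it had 3125 ± 254 in WT and 2977 ± 210.4 in cKO, at rank 271 and 298. Reads on Cr2 made up 0.381% (WT) and 0.407% (cKO) of all normalized counts of MZ B cells, against 0.105% and 0.101% in FO.

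Between the genotypes, Cr2 overlapped in both subsets. The log2 difference, cKO minus WT, was 0.057 in MZ (95% interval -0.21 to 0.32, limma adjusted p = 0.998) against -0.069 in FO (95% interval -0.34 to 0.20, adjusted p = 1), so that changes beyond these bounds are outside the intervals. Since both genotypes were sorted on CD21, this compares Cr2 among cells within the same gates. Cr2 shared no 50-base stretch, the read length, with another gene of the annotation.

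Of the membrane regulators, Cd55 fell in MZ B cells, Cd59a rose and Cr1l did not pass the test. Cd55 (ENSMUSG00000026399.12, minus strand, chromosome 1 from 130439027 to 130462744) encodes the GPI-anchored decay-accelerating factor, which dissociates the C3 and C5 convertases. It had 19232 and 21249.8 normalized counts in FO against 3925 and 5446 in MZ for WT, and 21165 and 24019.9 in FO against 5681 and 6263 in MZ for cKO. Every FO library was above every MZ library. Cd55 was 4.37-fold lower in MZ than in FO B cells in WT (log2 difference -2.13, standard error 0.16, limma adjusted p = 0.00023) and 3.78-fold lower in cKO (log2 difference -1.92, adjusted p = 0.000313).

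Between genotypes, Cd55 was higher in both cKO than in both WT libraries of MZ B cells, where 15.8% of all tested genes showed the same order, and overlapped in FO B cells. The log2 difference, cKO minus WT, was 0.37 in MZ B cells (standard error 0.16, adjusted p = 0.998 by limma) against 0.16 in FO (adjusted p = 1). Over the other settings and left-out libraries it lay between 0.13 and 0.60 in MZ, and no setting called it.

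Near Cd55, 8% of its 50-base stretches also occur in its paralog Cd55b, and these make up 23% of the stretches of Cd55b, so part of the reads on Cd55b may be uncertain. Cd55b had 8.98 and 17.1 normalized counts in FO and 2.89 and 2.72 in MZ libraries of WT, with 14.6 and 14.1 in FO and 3.99 and 2.06 in MZ libraries of cKO, which was under the minimum for testing. Both WT MZ values are 3 reads, so no fold is given. The antisense gene Cd55os, 1.11 kb from Cd55, was also lower in MZ, with 1159 and 1903 in FO against 288 and 519 in MZ for WT, and 1209 and 1404 against 382 and 334 for cKO. Its log2 difference, MZ minus FO, was -1.94 in WT (standard error 0.31, limma adjusted p = 0.00529) and -1.86 in cKO (adjusted p = 0.0054). Strand is not stated for the counting, so that reads of overlapping antisense transcripts (Gm16083, a mean of 9.62 normalized counts, overlaps Cd55) cannot be told apart from those of Cd55.

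Cd59a (ENSMUSG00000032679.12, plus strand, chromosome 2 from 104095801 to 104115354) had the widest difference between the subsets among the 6 tested genes. Its GPI-anchored protein binds C8 and C9 in the nascent membrane attack complex. It had 3.99 and 4.76 normalized counts in the FO libraries of WT and 6.72 and 14.1 in those of cKO, against 74.2 and 79.7 in the MZ libraries of WT and 195 and 198 in those of cKO. All MZ libraries were above all FO libraries. These values rest on few reads, 4 to 14 per FO library and 77 to 196 per MZ library. The log2 difference, MZ minus FO, was 3.86 in WT (standard error 0.38, 14.5-fold, limma adjusted p = 0.000713) and 4.20 in cKO (18.3-fold, adjusted p = 0.000459), both on the scale of log2(normalized count + 1), which makes changes of low counts smaller. Cd59a passed the minimum for testing through its MZ libraries, where it is high, so these p-values are conditioned on that group.

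Cd59a was also higher in each cKO library than in each WT library of the same subset, an order that 3.88% of all tested genes showed in both subsets. In FO this order rests on few reads, with mean normalized counts of 4.37 in WT and 10.4 in cKO. Cd59a passed the minimum for testing through its MZ libraries, so the intervals and p-values that follow are conditioned on that group. In MZ B cells the difference, cKO minus WT, was 1.34 on the log2 scale (standard error 0.38, 95% interval 0.46 to 2.23, 2.54-fold), with an unadjusted p of 0.00815 by limma and an adjusted p of 0.988. In FO B cells it was 1.01 (95% interval 0.13 to 1.89, limma adjusted p = 1), and across both subsets 1.18 (standard error 0.27, adjusted p = 0.381). The paper names Cd59a among the genes it called higher in cKO than in WT MZ B cells with DESeq2. In the fits run here, Cd59a did not pass the correction in any comparison of the genotypes. In MZ B cells the adjusted p was 0.0779 by DESeq2 and 0.634 by edgeR. Why the DESeq2 calls differ was not tested. Over the alternatives the log2 difference, cKO minus WT in MZ B cells, lay between 1.292 and 1.395. The difference between the subsets in this change was 0.33 (standard error 0.54, limma adjusted p = 1).

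The paralog Cd59b, 4.61 kb before Cd59a on the same strand, had 0 and 0 normalized counts in FO against 11.6 and 15.4 in MZ for WT, and 3.36 and 7.05 in FO against 25.9 and 29.9 in MZ for cKO. It was at least 4.61-fold higher in WT MZ than in WT FO B cells, against 3 reads per library, and in cKO its log2 difference, MZ minus FO, was 2.28 (standard error 0.53, limma adjusted p = 0.0226). It passed the minimum for testing through the MZ libraries, where it is high, so this p is conditioned on that group. The cKO call was lost by DESeq2 (adjusted p = 0.0581) and without cKO FO replicate 1 (0.119), cKO MZ replicate 1 (0.0904) or cKO MZ replicate 2 (0.0945). Its cKO libraries lay above its WT libraries in both subsets, an order that 3.88% of all tested genes showed, without passing the test (limma adjusted p = 0.307 across both subsets). In FO this order rests on 0 and 0 reads in WT against 3 and 7 in cKO. Cd59a and Cd59b share 3.87% of the 50-base stretches of Cd59a and 5.32% of those of Cd59b, so that a part of their reads cannot be assigned between them.

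Cr1l (ENSMUSG00000016481.15, minus strand, chromosome 1 from 195097382 to 195131586) encodes Crry, the rodent regulator of C3 convertases, and lies 5.22 kb from Cr2 on the same strand. It had 2637 and 2620.1 normalized counts in FO and 2469 and 2086 in MZ libraries of WT, with 2546 and 2676 in FO and 2219 and 2441 in MZ libraries of cKO. Each MZ library was below each FO library, by little. The log2 difference, MZ minus FO, was -0.21 in WT (95% interval -0.45 to 0.029, limma adjusted p = 0.218) and -0.17 in cKO (95% interval -0.41 to 0.075, adjusted p = 0.306). The difference between genotypes was 0.036 in MZ (95% interval -0.20 to 0.28) and -0.0098 in FO B cells (95% interval -0.25 to 0.23), with limma adjusted p of 0.998 and 1. Its neighbour Cr2 differed 3.49-fold between the subsets in WT, and 4.34% of the 50-base stretches of Cr1l recur elsewhere, nearly all in the pseudogene Crry-ps.

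On the level per length, the order of the regulators differed by subset. In WT FO B cells Cd55 led with 4171 ± 294 (SD, n = 2) normalized counts per kb of exon, followed by Cr2 with 3125 ± 254, Cfp with 331 ± 85.6, Cr1l with 254 ± 1.13 and Cd59a with 2.42 ± 0.30. In WT MZ B cells Cr2 led with 10890.2 ± 11.5, followed by Cfp with 1586 ± 399, Cd55 with 965 ± 222, Cr1l with 220.1 ± 26.2 and Cd59a with 42.5 ± 2.16. The cKO groups had the same order as WT in each subset, with Cd55 at 4655 ± 416 in FO and 1231 ± 84.8 in MZ, and Cfp at 392 ± 91.4 in FO and 2044 ± 54.1 in MZ. Cfp and Cr1l in WT FO lay less than 1 SD of Cfp apart, and Cfp and Cd55 in WT MZ about the sum of their SDs. The genes were measured in the same libraries, which these SDs do not take into account. The order of these neighbours was not tested.

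**Figure D1:**
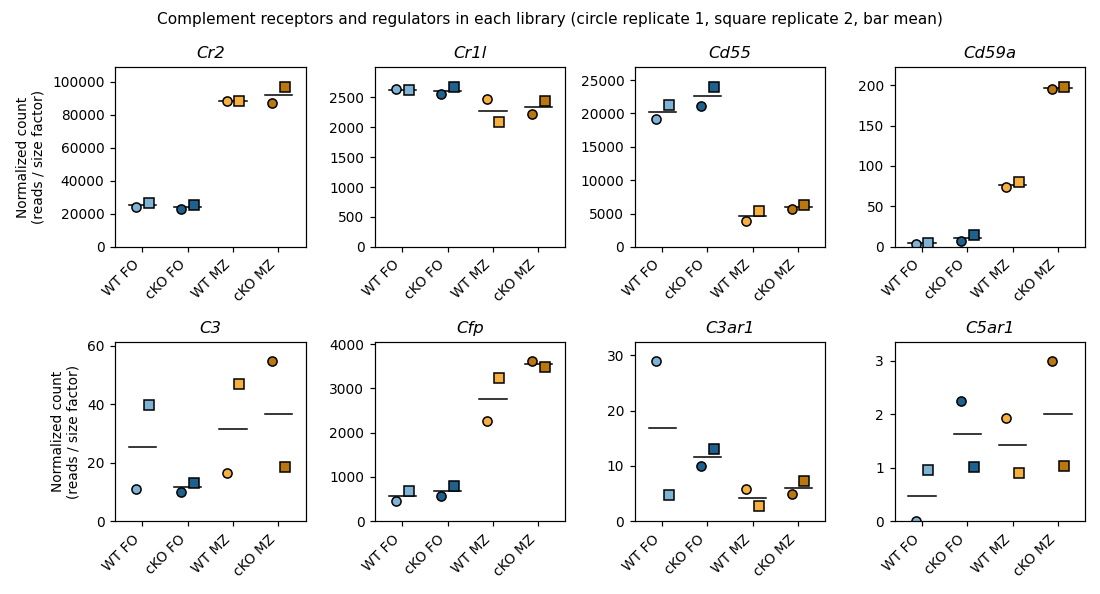
Normalized counts (reads divided by size factor, linear axes from 0, one scale per gene) of the 8 genes in the 8 libraries, with circles for replicate 1, squares for replicate 2 and bars for the mean of 2. Cr2, Cd59a and Cfp sit higher in both MZ groups and Cd55 in both FO groups, Cr1l lies between 2086 and 2676 throughout, and C3, C3ar1 and C5ar1 are low, with the replicates of C3 far apart in each group except cKO FO.

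Cfp, the gene of properdin (ENSMUSG00000001128.7, minus strand, chromosome X from 20925454 to 20931555), was higher in MZ B cells. It had 469 and 679 normalized counts in the FO libraries of WT and 569 and 793 in those of cKO, against 2263 and 3242 in the MZ libraries of WT and 3615 and 3482 in those of cKO. The FO and MZ libraries did not overlap. The log2 difference, MZ minus FO, was 2.26 in WT (standard error 0.24, 4.79-fold, limma adjusted p = 0.000986) and 2.40 in cKO (5.28-fold, adjusted p = 0.000647). Between genotypes it was 0.39 in MZ (95% interval -0.17 to 0.95, limma adjusted p = 0.998) against 0.25 in FO (95% interval -0.31 to 0.81, adjusted p = 1). Both cKO MZ libraries lay above both WT MZ libraries, an order that 15.8% of all tested genes showed.

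Properdin is known as a product of neutrophils and monocytes, and the genes of such cells were therefore read beside it. The 10 macrophage markers summed to 613 and 856 normalized counts in FO against 835 and 1366 in MZ for WT, and to 1011 and 686 in FO against 1426 and 1237 in MZ for cKO, so that they too were higher in MZ in cKO. Of the defining macrophage genes, Adgre1 was between 81.5 and 216 in the FO and between 53.0 and 160.3 in the MZ libraries, whereas Csf1r was between 66.9 and 217 in FO and between 85.7 and 299 in MZ. Of the 10 markers, 5 were higher in both MZ than in both FO libraries of WT (Cd68, Marco, Siglec1, Spic and Cd5l) and 0 lower, and in cKO 3 were higher (Cd68, Spic and Cd5l) and 1, Adgre1, lower. Spic had 71.9 and 62.8 normalized counts in FO against 178 and 159 in MZ for WT, and 109 and 159 in FO against 251 and 293 in MZ for cKO. Cd68 had 221 and 173 in FO against 378 and 283 in MZ for WT, and 206 and 186 in FO against 336 and 384 in MZ for cKO, so that both moved with Cfp. The 16 granulocyte and monocyte markers summed to 207 and 230.2 in FO against 118 and 187 in MZ for WT, and to 119 and 161 in FO against 2184 and 176 in MZ for cKO. Without cKO MZ replicate 1, the library with the high sum, Cfp remained called, and over all alternatives its log2 difference lay between 1.99 and 2.53 in WT and between 2.16 and 2.64 in cKO. The part of RNA from macrophages, granulocytes or monocytes in the Cfp difference was not tested.

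The neighbours of Cfp on the X chromosome did not pass the test. Syn1, 4.45 kb away, was between 19.0 and 50.8 normalized counts, with log2 differences, MZ minus FO, of 0.47 in WT and 0.55 in cKO (limma adjusted p = 0.349 and 0.25). Elk1, 1.84 kb away, was between 685 and 896, with log2 differences of 0.20 and 0.011 (limma adjusted p = 0.352 and 0.965). Cfp shared no 50-base stretch with another gene.

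**Figure D2:**
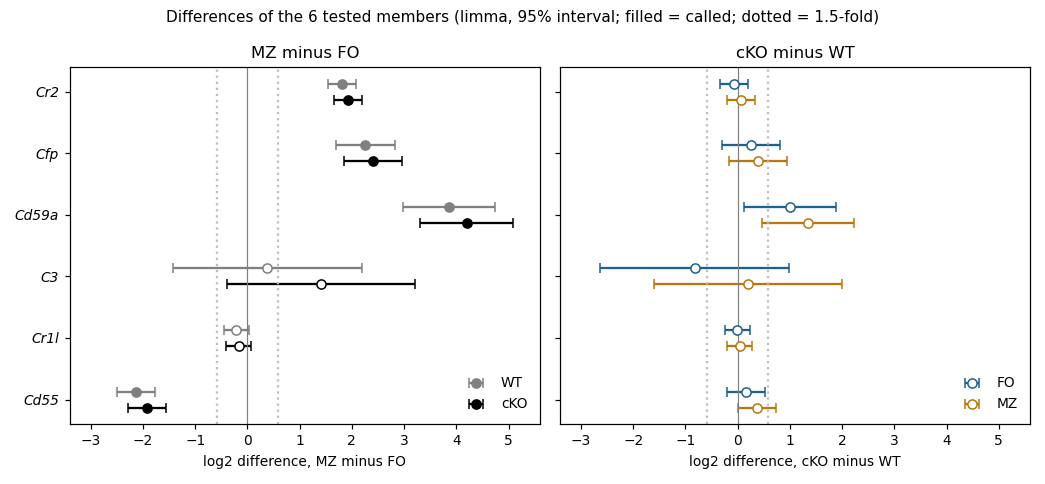
Log2 differences of the 6 tested genes from limma, MZ minus FO in each genotype on the left and cKO minus WT in each subset on the right, with 95% intervals, filled symbols for called genes and dotted lines at 1.5-fold. Cr2, Cfp, Cd59a and Cd55 are called in both genotypes on the left, and none is called on the right, where Cd59a lies farthest from 0 at 1.01 in FO and 1.34 in MZ.

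C3 and the anaphylatoxin receptors had few reads in these B cells. C3 (ENSMUSG00000024164.15, minus strand, chromosome 17 from 57203970 to 57228136), the central component of the cascade, is made mainly by the liver and by myeloid cells. It had 11 and 40.0 normalized counts in FO against 16.4 and 47.1 in MZ for WT, and 10.1 and 13.1 in FO against 54.8 and 18.6 in MZ for cKO. WT FO replicate 2, WT MZ replicate 2 and cKO MZ replicate 1 were high and the other 5 libraries low, in both subsets and both genotypes. The log2 difference, MZ minus FO, was 0.38 in WT (standard error 0.78, limma adjusted p = 0.791) and 1.40 in cKO (adjusted p = 0.25), and without WT FO replicate 1 or WT MZ replicate 2 it turned negative in WT, to -0.50 and -0.35.

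The same 3 libraries were high in several genes of other cell types, which were chosen once their values had been seen. Itgax, a dendritic cell gene that encodes a chain of complement receptor 4, was 85.6, 215 and 81.7 in these libraries and between 15.7 and 64.5 in the other 5. Siglech, of plasmacytoid dendritic cells, was 36.2, 55.2 and 35.9 against 4.99 to 17.3, and the monocyte receptor Ccr2 was 55.2, 35.3 and 55.8 against 1.93 to 12.4. The NK cell gene Klrb1c was 38.1, 40.8 and 31.9 against 7.22 to 13.4. Ly6c2 and the sums of the T and NK and dendritic cell lists did not follow these libraries. Ly6c2, another monocyte gene, was 105.6, 84.2 and 54.8 in them against 8.67 to 71.9, and the 11 T and NK cell markers summed to 1422, 1342 and 856 against 819 to 1121. The sum of the 8 dendritic cell markers was highest in the cKO MZ libraries, with 439 and 382 against 195 to 262 in the others, and 0 to 2 of the 8 were at 0 in a library. Flt3 alone made up 302 and 286 of the cKO MZ sums, and 96.1 to 158 in the other libraries. The part of such cells in the C3 values was not tested.

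**Figure D3:**
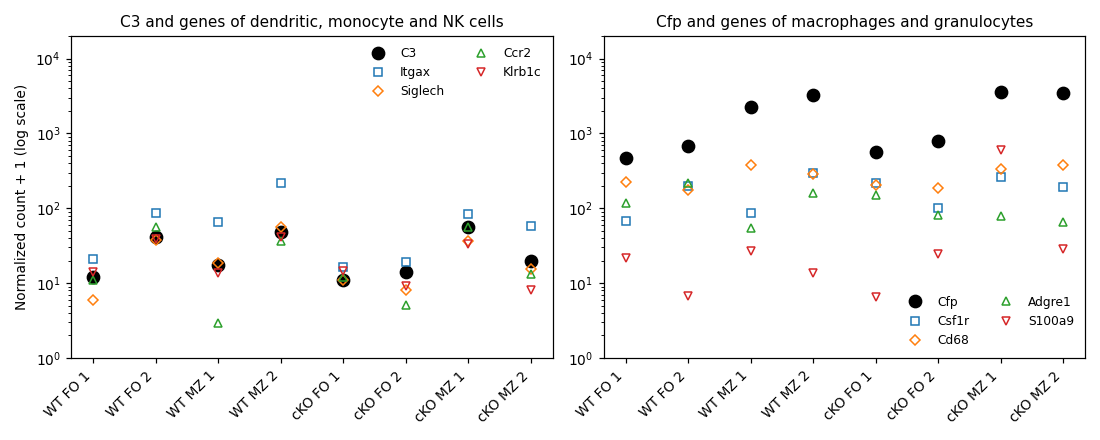
Normalized counts plus 1 on a log axis in the 8 libraries, for C3 with 4 genes of dendritic cells, monocytes and NK cells on the left and for Cfp with 4 genes of macrophages and granulocytes on the right. On the left WT FO 2, WT MZ 2 and cKO MZ 1 are high for C3 and the other genes, and on the right Cfp is high in the 4 MZ libraries while S100a9 stands out at 604 in cKO MZ 1 only.

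C5ar1 (ENSMUSG00000049130.6, minus strand, chromosome 7 from 16246743 to 16259540) had 0 and 0.951 normalized counts in FO and 1.93 and 0.906 in MZ libraries of WT, with 2.24 and 1.01 in FO and 2.99 and 1.03 in MZ libraries of cKO. These are 0 to 3 reads per library, at or under the 3 reads that a count of 0 allows, so no fold is given and a difference was not detectable at this depth. C3ar1 (ENSMUSG00000040552.8, minus strand, chromosome 6 from 122847138 to 122856161) had 28.9 and 4.76 in the FO libraries of WT and 10.1 and 13.1 in those of cKO, against 5.78 and 2.72 in the MZ libraries of WT and 4.98 and 7.22 in those of cKO. Its mean of 9.69 was under the minimum of 10, and 1 library, WT FO replicate 1, lay above the rest. The decoy receptor gene C5ar2, 2.59 kb from C5ar1, was between 14.0 and 46.6 in the FO and between 1.93 and 29.9 in the MZ libraries and was not called in either genotype.

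In all, limma called 3 of the 6 tested genes higher and 1 lower in MZ than in FO B cells of WT, where it called 7.41% of the 14761 tested genes higher and 4.62% lower. In cKO it again called Cr2, Cd59a and Cfp higher and Cd55 lower, where 8.18% of all genes were called higher and 5.54% lower. The MZ and FO libraries did not overlap for 5 of the 6 in WT (3 higher and 2 lower) and for 6 of 6 in cKO (4 higher and 2 lower), an order that 28.2% and 27.2% of all genes had in WT, higher and lower, and 32.0% and 33.1% in cKO. Since Cr2 was set by the sort and Cd59a passed the minimum through its MZ libraries, these counts describe the genes and are no test of the group. The median log2 difference of the 6 genes was 1.09 in WT and 1.67 in cKO, and their median size regardless of sign was 1.97 and 1.92, against 0.28 and 0.31 over all tested genes. These medians include Cr2 and Cd59a and are likewise no test of the group.

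Between cKO and WT, limma called 0 of the 6 genes in MZ B cells, where 0.0339% of all genes were called, 0 in FO B cells (0.0677% of all genes) and 0 across both subsets (0.108%). DESeq2 and edgeR on the recovered reads also called 0 in each, where DESeq2 called 0.325%, 0.169% and 0.467% of all genes and edgeR 0.0271%, 0.0610% and 0.108%. The paper's own DESeq2 comparison of MZ B cells did call Cd59a higher in cKO. Without correction, the limma p was under 0.05 for Cd55 and Cd59a in MZ and across both subsets, and for Cd59a in FO. The share of all tested genes under this cutoff is not given here, so these p-values are no result about the group. The median log2 difference, cKO minus WT, was 0.28 in MZ and 0.074 in FO B cells, against -0.015 and -0.0099 over all genes. These medians include Cd59a, which passed the minimum through its MZ libraries, and are likewise no test of the group. The interaction of genotype and subset was called by limma, DESeq2 and edgeR for 0 of the 6 genes, as for 0% of all genes, and 0 had an unadjusted limma p under 0.05. The FO to MZ differences of Cr2, Cd55, Cd59a and Cfp changed between genotypes by 0.13 (standard error 0.16), 0.21 (0.22), 0.33 (0.54) and 0.14 (0.34) on the log2 scale.

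Cd81, which encodes a tetraspanin that acts beside CD21 in the coreceptor, was higher in MZ B cells of both genotypes. It had 2923 and 3003 normalized counts in FO against 5616 and 5179 in MZ for WT, and 2867 and 2788 in FO against 5050.3 and 4917 in MZ for cKO. Its MZ libraries all lay above its FO libraries, with a log2 difference of 0.86 in WT (standard error 0.079, 1.82-fold, limma adjusted p = 0.000538) and 0.82 in cKO (1.76-fold, adjusted p = 0.000596). Between genotypes, Cd81 differed by -0.11 in MZ and by -0.067 in FO B cells on the log2 scale, cKO minus WT, and was not called. Per kb of exon, Cr2 stood in MZ B cells at 10890.2 normalized counts for WT and 11344 for cKO, and Cd81 at 1875 and 1731.

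**Figure D4:**
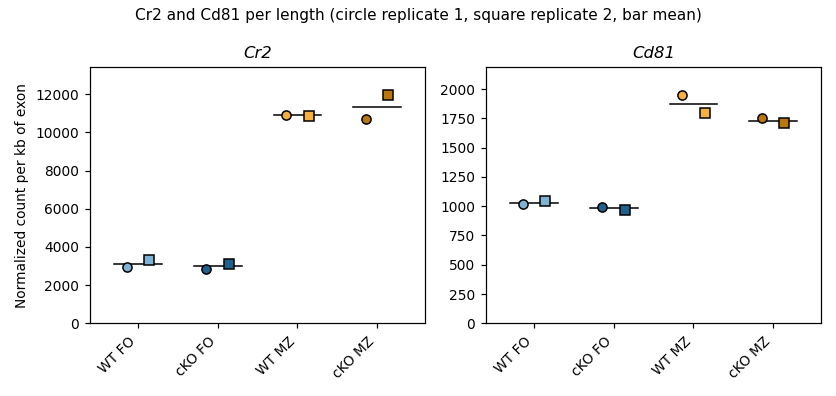
Normalized counts per kb of exon (linear axes from 0) of Cr2 and Cd81 in the 8 libraries, with circles for replicate 1, squares for replicate 2 and bars for the mean. Both genes are higher in both MZ groups than in both FO groups, and neither is called between the genotypes.

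Beyond the 8 genes, a list of 50 complement and coreceptor genes had 19 genes that passed the minimum. It held Cd81, Ifitm1, Ifitm2 and Ifitm3 (coreceptor partners), other receptors, other regulators and the components of the classical, lectin, alternative and terminal pathways. Those that passed, Ifitm3 included, are the other complement genes named below. MZ B cells of WT had 3 of the 19 higher (C2, Cd81 and Cd59b) and 0 lower, and those of cKO 2 higher (Cd81 and Cd59b) and 1 lower (Cd93), beside 7.41% of all tested genes higher and 4.62% lower in WT, and 8.18% and 5.54% in cKO. C2 and Cd59b passed the minimum through their MZ libraries, where they are high, so their calls describe these genes and are no test of the list. The median log2 difference of the 19, MZ minus FO, was 0.46 in WT and 0.77 in cKO, against -0.0048 and -0.0047 over all tested genes. These medians include C2 and Cd59b and are likewise no test of the list. Between genotypes limma, DESeq2 and edgeR called 0 of the 19 within either subset or across both. Without correction, the limma p was under 0.05 only for Cd59b, in FO and in the comparison over both. The share of all tested genes under this cutoff is not given here, so this is no result about the list.

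C2, the protease of the classical convertase, had 5.99 and 5.71 normalized counts in the FO libraries of WT and 10.1 and 7.05 in those of cKO, against 23.1 and 28.1 in the MZ libraries of WT and 18.9 and 40.2 in those of cKO. Its log2 difference, MZ minus FO, was 1.95 in WT (standard error 0.47, limma adjusted p = 0.0283) and 1.60 in cKO (adjusted p = 0.0509). The WT call was lost without any of the 4 WT libraries (adjusted p 0.0865 to 0.129), by DESeq2 (0.0502), without the minimum count (0.0588) and in a fit of the 4 libraries alone (0.0559). In cKO it was called by edgeR (adjusted p = 0.042) and with a replicate block in which the cKO MZ numbers were exchanged (0.0356). That exchange was chosen after the data were seen, so calls with it are no independent result. Cd93, a receptor first described as binding C1q and a marker of immature B cells, had 353 and 708 in FO against 83.8 and 266 in MZ for WT, and 572 and 588 in FO against 117 and 141 in MZ for cKO. Its log2 difference, MZ minus FO, was -1.74 in WT (standard error 0.51, limma adjusted p = 0.0573) and -2.17 in cKO (adjusted p = 0.0237), and the cKO call was lost without any of the 4 cKO libraries (0.0886 to 0.139). In WT it was called by DESeq2 (adjusted p = 0.0026), after quantile normalization (0.0388), with the replicate block (0.0145, or 0.0174 with the numbers exchanged) and without WT MZ replicate 2 (0.00591).

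Of the soluble components and regulators, Hc (the gene of C5), Cfb, Cfd, Cfi, Masp1 and Serping1 had at most 3.09 normalized counts in any library. The 3 chains of C1q, made by macrophages, were between 22.2 and 199 normalized counts and were not called in any comparison. C8g, a chain of C8, was between 114 and 175 and was not called. The genes Itgb2 and C1qbp, the common beta chain of complement receptors 3 and 4 and a mitochondrial protein that binds C1q, were higher in MZ past the threshold of the adjusted p (0.05) in both genotypes but by less than 1.5-fold.

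**Figure D5:**
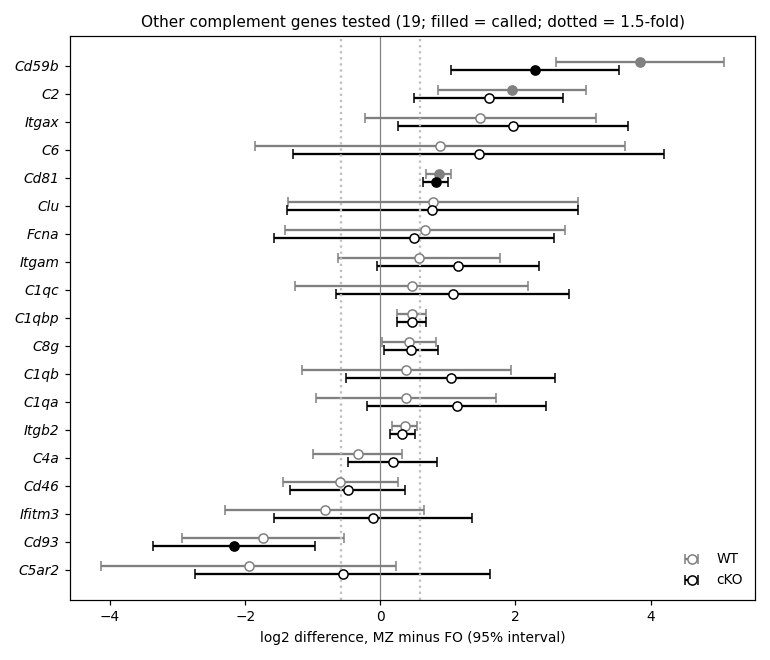
Log2 differences, MZ minus FO, of the 19 other complement genes tested, from limma with 95% intervals, grey for WT and black for cKO, filled where called and with dotted lines at 1.5-fold. Cd59b and Cd81 are called in both genotypes, C2 in WT and Cd93 in cKO, and the intervals of Clu, C6, Fcna and the C1q genes cross 0.

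For each tested gene, the 3 other genes with the most alike profile were found by the root mean square difference of log2 values, each centred on its own mean, over the 8 libraries. For Cr2 these were Bzw2 (0.11), Dtx4 (0.12) and Crebl2 (0.13), where the size of the Cr2 profile itself was 0.94. In WT, Bzw2 had 611 and 705 normalized counts in FO against 2208 and 1879 in MZ, and Dtx4, a Deltex family gene, 156 and 199.8 against 758 and 700.1. For Cd55 they were Gmfg (0.16), Ldlrad4 (0.18) and Gm8369 (0.18), against a profile size of 1.03. For Cfp they were 4930568A12Rik (0.16), Slc25a13 (0.19) and Pla2g4a (0.20), against 1.20, and for Cr1l Ubp1, Zfp236 and Ercc3 (0.033 to 0.044 against 0.12).

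Nearest to Cd59a were 5730409E04Rik (0.43), Vash2 (0.48) and Adamts13 (0.48) against a size of 2.11. Vash2 had 3.99 and 4.76 normalized counts in FO and 56.8 and 101 in MZ libraries of WT, with 6.72 and 5.03 in FO and 136 and 140.2 in MZ libraries of cKO. For C3 the nearest were Cdk5rap1 (0.22), Klrd1 (0.32) and Kcnj10 (0.34) against 0.88. Cdk5rap1 had 132 and 571 normalized counts in the FO libraries of WT and 159 and 212 in those of cKO, against 286 and 564 in the MZ libraries of WT and 581 and 283 in those of cKO, high in the same 3 libraries as C3. These are descriptions over 8 libraries that share 4 groups.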

How the data were processed

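RNA-seq profiled 4 groups (WT or cKO, FO or MZ B cells), each with 2 libraries. The labels do not say whether libraries of a group came from separate mice, so p-values measure the spread between these libraries, which may be technical. According to the methods of the study, ribosomal RNA was depleted and single-end reads of 50 bases were aligned to mm10 with HISAT2 and counted on genes. The authors deposited a signal table of counts normalized with DESeq2 size factors. Whole reads were recovered for 100% of its values (tolerance 0.01), and 256343 blank lines were left out. Of the 27928 identifiers, 27872 were found in GENCODE M21 (GRCm38), which gave coordinates and exon lengths. Promoter sequences are from RefSeq (GRCm38.p6), with an entry for each of the 8 genes.

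Limma 3.58.1 in R 4.3.3 was fitted to log2(normalized count + 1) of 14761 genes with a mean of at least 10 (4 group means, 8 libraries, eBayes with trend). Calls required a fold of 1.5 or more and an adjusted p (Benjamini-Hochberg over these genes) of 0.05 or less. An exact permutation test of 2 against 2 libraries cannot go below 0.333. Tests are 2-sided, and each adjusted p without another tool named is from limma. Depth was 21546552 to 25083552 reads on genes, and intervals cover the spread between libraries only.

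Named genes were the 8 members, Cd81, other complement genes called in any comparison, paralogs and neighbours, the 3 most alike genes of each tested member, and checks. Other genes were chosen after their values were seen. The members and lists were chosen with earlier results of these data known. Alternatives were a pseudocount of 0.5, no minimum count, quantile normalization, a fit limited to the libraries compared, a replicate block, DESeq2 1.42.0 and edgeR 4.0.16 (quasi-likelihood, TMM) on the recovered reads, and leaving out each library. A block with the cKO MZ numbers exchanged was added after the data were seen. The scripts were tested on simulated data. The 8 ATAC-seq samples, and the genes Cpn2, Csmd1, C1s1, Mbl1, Mbl2, Colec10, C7, C8a, C8b and C9, were not analysed here, and 1 gene of the rule and the list is not reported here.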

Additional observations from a re-analysis of the deposited data

How the results depend on the processing

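The count of called genes among the 6 tested members kept within 4 to 5 between subsets and at 0 between genotypes in every alternative run, and Cr2, Cd55, Cd59a and Cfp kept their calls between subsets in each. Scaling moved the median of all genes by less than 0.1 on the log2 scale. The called other complement genes, of 19, changed more: MZ against FO in WT gave 5 with the replicate block (3 in the report), and in cKO 7 with only the libraries compared and 5 with the crossed block (3 in the report). With 1 library left out these counts ranged from 2 to 3 in WT and from 1 to 4 in cKO. Between genotypes the count was 0 in every alternative run.

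Small differences changed sign or fell to 0. Cr2, cKO minus WT, was 0 in MZ after quantile normalization and 0.00077 by DESeq2 and 0.0051 by edgeR across both subsets, Cr1l in FO 0.014 and the interaction of Cd81 0.0023 after quantile normalization. With 1 library left out, the ranges for cKO minus WT were as follows. Cr2 lay between -0.023 and 0.14 in MZ, -0.15 and 0.014 in FO, and -0.048 and 0.035 across both subsets. Cr1l lay between -0.086 and 0.16 in MZ, -0.046 and 0.026 in FO, and -0.048 and 0.074 across both. C3 lay between -0.56 and 0.95 in MZ, -1.71 and 0.061 in FO, and -0.76 and 0.13 across both, and for MZ minus FO in WT between -0.50 and 1.27. Cfp in FO lay between -0.016 and 0.52. The interactions lay between -0.076 and 0.17 (Cr1l), -0.026 and 0.45 (Cd55), -0.15 and 0.82 (Cd59a), -0.13 and 0.41 (Cfp) and -0.11 and 0.012 (Cd81). The cause was not tested.

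Replicate numbers were shared across groups, but their deviations did not all correlate: over 10178 genes the 3 pairs among WT FO, WT MZ and cKO FO gave 0.337 to 0.769 and the 3 pairs with cKO MZ -0.402 to -0.122. The numbers were therefore not taken as pairs, and a block with the cKO MZ numbers crossed was added after seeing the data. The replicate block changed no call of a member. With the crossed block, C3 was also called in cKO (MZ minus FO 1.40, limma adjusted p = 0.0443). The crossing was chosen from the correlations of these same libraries, so this call is no independent result. The 2 libraries per group limit the precision, and counts under about 10 reads (Cd59a in FO, C5ar1, C3ar1, Cd59b) carry a large counting error.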
